A study of Homo sapiens with 4 samples.

Results

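The genes described are 10 members of the YAP/TAZ pathway: the secreted targets CCN1 and CCN2, the angiomotins AMOT, AMOTL1 and AMOTL2, the targets ANKRD1 and AXL, the coactivator YAP1, and the DNA-binding factors TEAD1 and TEAD4. They were taken by symbol from the annotation of the array's probe sets, and 9 of the 10 had at least 1 named probe set, among 14884 genes with a name. CCN1 had none and was not analysed here. There were 2 shYTHDF3 and 2 shControl samples of MDA-MB-231Br, a derivative of the triple-negative breast cancer line MDA-MB-231 (the sample titles give the parental name). The shYTHDF3 cells carried a lentiviral hairpin against YTHDF3, a cytoplasmic reader of N6-methyladenosine on RNA, and the shControl cells a control hairpin. Both groups were selected with puromycin, and 1 hairpin label stands for the knockdown, with no sequence given. YTHDF3 itself had 0 named probe sets, so its level could not be checked. The labels do not state whether the 2 samples of a group were separate cultures, so the spread behind the p-values may be technical.

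YAP1 and its relative TAZ are transcriptional coactivators that the Hippo kinases LATS1 and LATS2 phosphorylate and hold in the cytoplasm. Unphosphorylated YAP1 and TAZ enter the nucleus and bind TEAD factors, which recognise DNA at target genes, often beside AP-1. Angiomotins bind YAP1 in the cytoplasm and at tight junctions, and AMOTL2 is itself a target gene, which closes a negative feedback loop. MDA-MB-231 cells carry a mutation in NF2, an upstream Hippo regulator, and are widely used for work on YAP-driven growth and spread.

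The labelled line was checked against marker genes, which were mixed. VIM, the mesenchymal filament protein vimentin, had mean log2 values of 9.89 in shYTHDF3 and 9.85 in shControl arrays, and MSN (moesin) had 12.29 in shYTHDF3 and 12.45 in shControl arrays. Further VIM probe sets read 8.68 and 7.01 in shYTHDF3, against 7.78 and 6.80 in shControl arrays. EGFR (9.95 in shYTHDF3, 10.12 in shControl) and CD44 (8.29 in shYTHDF3, 8.12 in shControl) of the same list were also high. S100A4 of the same list lay near the array medians at 3.38 in shYTHDF3 and 3.07 in shControl arrays, and the basal keratin KRT5 did not reach the filter value of 2.54. The oestrogen and progesterone receptor genes lay near that filter value, ESR1 at 2.91 in shYTHDF3 and 2.84 in shControl arrays and PGR at 2.68 in shYTHDF3 and 2.66 in shControl arrays. The epithelial genes KRT18 (8.96 in shYTHDF3, 8.45 in shControl) and EPCAM (6.70 in both groups) were well above it. A further KRT18 probe set was dimmer, at 5.85 in shYTHDF3 and 5.57 in shControl arrays. Of the same list KRT19 read 6.37 in shYTHDF3 and 6.77 in shControl arrays. KRT8 was lower, at 4.20 in shYTHDF3 and 4.31 in shControl arrays, and ERBB3 read 3.05 in shYTHDF3 and 2.93 in shControl arrays. FOXA1 (5.17 in shYTHDF3, 4.90 in shControl), SPDEF (5.21 in shYTHDF3, 5.05 in shControl) and GATA3 (4.64 in shYTHDF3, 4.60 in shControl) lay above the array medians. CLDN3 read 5.48 in shYTHDF3 and 5.35 in shControl arrays, and CLDN4 read 3.45 in shYTHDF3 and 3.87 in shControl arrays. Of 13 tested luminal and epithelial markers 1 passed the test used below. It was XBP1, which also belongs to the stress response, lower in shYTHDF3 (7.19 in shYTHDF3, 8.19 in shControl). Of 5 tested leukocyte, endothelial and fibroblast markers 0 passed. These 5 had a mean log2 level of 4.64 and 4.63 in the shYTHDF3 arrays, against 4.80 and 4.94 in the shControl arrays, and their part in the results below was not tested. CD68 stood far above the rest, at 10.48 in shYTHDF3 and 10.66 in shControl arrays. KDR read 4.76 in shYTHDF3 and 5.06 in shControl arrays. The group means of VWF, CD14 and PECAM1 lay between 2.50 and 3.08, near the filter value.

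RefSeq promoter windows of 300 bases (250 before to 50 after the transcription start, GRCh38.p14) were given for 7 of the 10 genes, with 9 windows in all. They were searched on both strands for the TEAD motif GGAATG. It was found in 5 of the 9 windows, against 4928 of all 35116 windows in the table (14.0%). The CCN2 window (chr6:131951323-131951622, minus strand) held 3 matches, starting 169, 104 and 95 bases before the start site, and 0.128% of all windows held 3 or more. ANKRD1 (chr10:90921038-90921337, minus strand) held 2, and 1.37% of all windows held at least that many. AMOTL2 (chr3:134374398-134374697, minus strand) and YAP1 (chr11:102110197-102110496, plus strand) held 1 each. These windows are printed because their matches differ in number among genes that are compared below. Each is on the gene's own strand, 5′ to 3′, with the TEAD motif or its reverse complement in capitals.
CCN2: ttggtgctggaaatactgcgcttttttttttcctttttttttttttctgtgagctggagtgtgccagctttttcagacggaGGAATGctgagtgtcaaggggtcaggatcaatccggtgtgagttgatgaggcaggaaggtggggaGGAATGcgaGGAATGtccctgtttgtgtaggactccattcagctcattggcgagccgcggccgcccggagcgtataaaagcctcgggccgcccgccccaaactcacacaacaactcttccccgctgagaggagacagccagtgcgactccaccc
ANKRD1: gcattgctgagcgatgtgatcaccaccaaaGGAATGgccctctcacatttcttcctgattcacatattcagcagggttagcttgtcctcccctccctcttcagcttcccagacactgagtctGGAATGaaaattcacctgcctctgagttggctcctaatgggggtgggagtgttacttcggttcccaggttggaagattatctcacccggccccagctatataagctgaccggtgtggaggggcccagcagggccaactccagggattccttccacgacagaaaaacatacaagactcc
AMOTL2: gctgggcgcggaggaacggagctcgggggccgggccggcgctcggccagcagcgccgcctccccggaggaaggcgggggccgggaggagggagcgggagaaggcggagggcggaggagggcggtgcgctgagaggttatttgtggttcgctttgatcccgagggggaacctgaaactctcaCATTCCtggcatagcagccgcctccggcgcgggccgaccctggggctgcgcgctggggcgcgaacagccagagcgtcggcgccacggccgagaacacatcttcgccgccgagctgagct
YAP1: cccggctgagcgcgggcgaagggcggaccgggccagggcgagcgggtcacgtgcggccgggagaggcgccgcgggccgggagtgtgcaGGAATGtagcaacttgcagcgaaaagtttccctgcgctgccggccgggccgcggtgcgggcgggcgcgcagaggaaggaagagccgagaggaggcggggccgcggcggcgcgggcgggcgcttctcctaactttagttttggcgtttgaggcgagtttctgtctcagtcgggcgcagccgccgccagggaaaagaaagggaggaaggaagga
The fifth window with a match was the second of AXL (chr19:41226505-41226804, plus strand). The windows of AMOTL1 and AMOT, the other AMOTL2 window and the other AXL window had none of these letters. The AP-1 motif TGANTCA was found in ANKRD1 alone among the member windows, against 7.71% of all windows. The CArG box, searched in a loose form with CC and GG around any 6 bases, was in 78.2% of all windows and in 8 of the 9 member windows, the exception being CCN2. Only 1 of the 8 TEAD matches, in ANKRD1, overlapped another of these motifs. A match is a description of the letters and not evidence of binding.

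**Figure D1:**
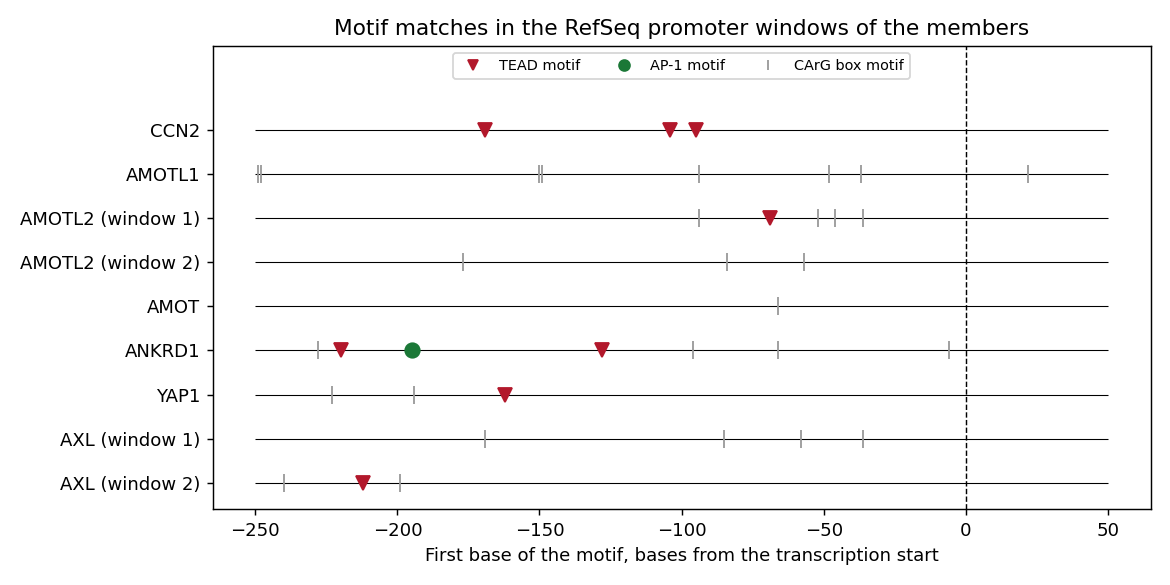
Positions of motif matches in the 9 promoter windows, in bases from the transcription start (dashed line), for TEAD (triangles), AP-1 (circle) and CArG box (ticks). CCN2 carries 3 TEAD matches within 169 bases before its start, ANKRD1 carries 2, and the AMOTL1 and AMOT windows carry none.

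None of the 9 measured genes passed the test for a difference between shYTHDF3 and shControl arrays. Values are the authors' log2 expression values, and a gene with several probe sets was read from the brightest one. Limma called 96 of 12755 tested genes at an adjusted p under 0.05 (Benjamini-Hochberg over all genes tested), which is 0.753% (85 lower, 0.666%, and 11 higher, 0.0862%). The count was 36 without shYTHDF3 replicate 1, 35 without shYTHDF3 replicate 2, and 0 in limma without either shControl array, where 1370 and 1392 genes had an unadjusted p under 0.05. Of the 9 members 7 had a higher and 2 a lower mean in shYTHDF3 arrays, with a median log2 difference of 0.10, against 0.00 over all genes tested. The groups did not overlap for 7 members (5 higher, 2 lower), where 45.5% of all genes did not overlap (22.6% higher, 22.8% lower). At an unadjusted p under 0.05 there was 1 member, CCN2, where 14.7% of all genes lay. All 9 members reached the filter on low values.

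CCN2, also known as CTGF, encodes a secreted matricellular protein that binds integrins and growth factors and is the standard readout of YAP and TEAD activity. Its log2 level was 10.38 and 10.67 in the shYTHDF3 arrays, against 10.94 and 11.14 in the shControl arrays. Both knockdown arrays lay below both control arrays, and the gap between the nearest pair was about as wide as that between replicates. The difference was -0.52 (SE 0.16, 95% interval -0.88 to -0.15), or 1.43-fold lower, with an unadjusted p of 0.012 and an adjusted p of 0.20 from limma. Among all genes tested 94.3% had a smaller or equal absolute difference. In RNA from whole cultures, fewer cells with a transcript and less of it per cell cannot be told apart.

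A further CCN2 probe set did not follow the first. It read 6.40 and 6.59 in the shYTHDF3 arrays, against 6.08 and 6.40 in the shControl arrays, so the groups met at 6.40. Its difference was 0.25 (95% interval -0.12 to 0.63, adjusted p = 0.51 from limma over all 13716 named probe sets). Leaving out shControl replicate 1 gave 0.098, and leaving out shControl replicate 2 gave 0.41. With both probe sets averaged, the CCN2 difference was -0.13 with an adjusted p of 0.76 from limma. The sign of the CCN2 difference thus depended on the probe set. The part of the transcript that each probe set covers, and its strand, were not given.

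Of the other CCN genes, which share the domain plan of CCN2, 4 were tested and 0 passed. CCN3, a family member often opposed to CCN2 in its effects, was 7.54 and 7.62 in the shYTHDF3 arrays and 7.83 and 8.16 in the shControl arrays, a difference of -0.41 (SE 0.15, adjusted p = 0.28 from limma). CCN5, which lacks the C-terminal domain of the family, was 4.30 and 3.74 in shYTHDF3 arrays and 3.62 and 3.67 in shControl arrays. That is a difference of 0.38 with the knockdown arrays far apart. CCN6 and CCN4 had differences of 0.15 and -0.11 at log2 levels of 2.71 to 3.77, near the array medians of 3.20 to 3.22, where weak signals are compressed.

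The angiomotins AMOTL1 and AMOTL2 lay higher in both knockdown arrays than in either control array, without passing the test. AMOTL1, a junctional scaffold that binds YAP1 through PPxY motifs, was 7.41 and 7.37 in shYTHDF3 arrays, against 7.05 and 7.13 in shControl arrays. The replicates of each group lay close together. The difference was 0.30 (SE 0.13, 95% interval from just under 0 to 0.59), or 1.23-fold, with an unadjusted p of 0.050 and an adjusted p of 0.34 from limma. A further AMOTL1 probe set, near the array medians at 3.29 and 3.46 in shYTHDF3 and 3.09 and 3.33 in shControl arrays, differed by 0.16 with overlapping groups.

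AMOTL2, the angiomotin that YAP and TEAD induce, was 6.41 and 6.38 in shYTHDF3 arrays, against 6.06 and 6.24 in shControl arrays. The difference of 0.24 (SE 0.13, 95% interval -0.07 to 0.56) had an adjusted p of 0.44 from limma. AMOT, the founding angiomotin, was 3.72 and 3.46 in shYTHDF3 and 3.60 and 3.50 in shControl arrays. Its control arrays lay between its knockdown arrays, with a difference of 0.04 (95% interval -0.30 to 0.38). That interval leaves room for a change of up to about the size estimated for AMOTL1, and AMOT lies close to the array medians.

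**Figure D2:**
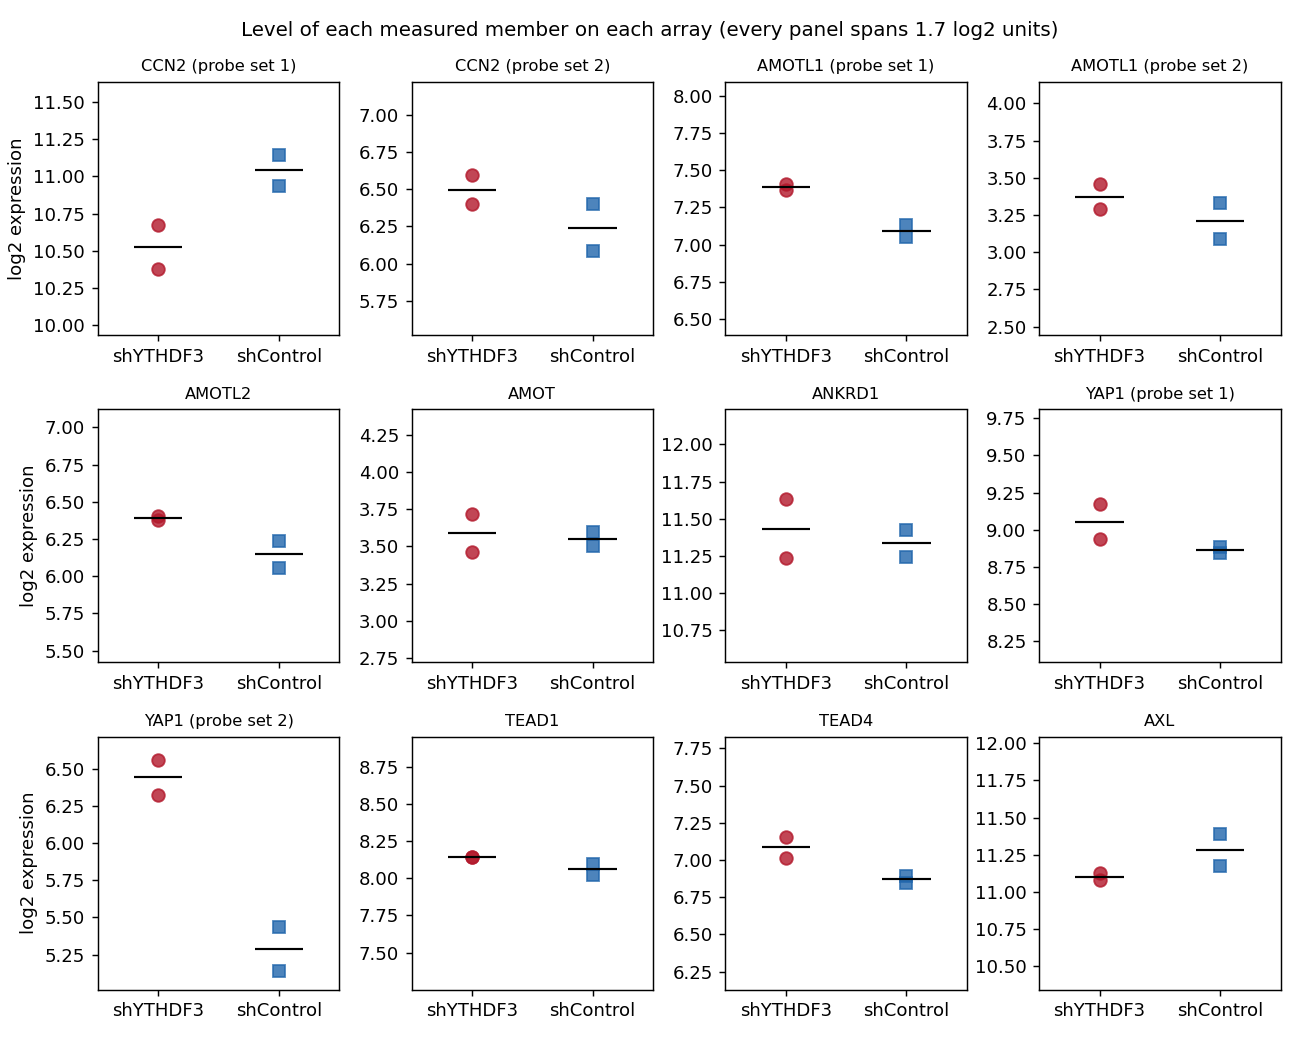
Log2 expression of each of the 12 named probe sets of the 9 measured genes on every array, shYTHDF3 (circles) left and shControl (squares) right, with a line at each group's mean of 2 arrays. Every panel spans the same range of log2 units. YAP1 probe set 2 shows the widest separation (6.56 and 6.32 against 5.14 and 5.44), and the 2 CCN2 probe sets run in opposite directions.

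ANKRD1 and AXL, the other targets, did not differ detectably. ANKRD1, a nuclear ankyrin repeat protein strongly induced by YAP, was 11.63 and 11.23 in shYTHDF3 and 11.43 and 11.24 in shControl arrays. The knockdown arrays spanned the control arrays, and the difference was 0.10 (SE 0.17, 95% interval -0.30 to 0.50, adjusted p = 0.84 from limma). Without shYTHDF3 replicate 1 the ANKRD1 difference was -0.10. AXL, a receptor tyrosine kinase tied to invasion of breast cancer cells, was 11.08 and 11.13 in shYTHDF3 and 11.18 and 11.39 in shControl arrays. The groups did not overlap by a narrow margin, at a difference of -0.18 (SE 0.14, 95% interval -0.51 to 0.14, adjusted p = 0.59 from limma). Leaving out shControl replicate 1 gave -0.29 for AXL, and leaving out shControl replicate 2 gave -0.076.

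A further probe set named YAP1 gave the only call among the members, while the one that stood for the gene did not pass. Which strand it reads was not given, so the call is for that probe set, and whether it holds for YAP1 mRNA was not tested. On the brighter probe set YAP1 was 9.17 and 8.94 in shYTHDF3 arrays, against 8.88 and 8.84 in shControl arrays, a difference of 0.19 (SE 0.14, 95% interval -0.14 to 0.52, adjusted p = 0.58 from limma). Leaving out shYTHDF3 replicate 1 gave 0.073, and leaving out shYTHDF3 replicate 2 gave 0.31. The further probe set read 6.56 and 6.32 in shYTHDF3 arrays, against 5.14 and 5.44 in shControl arrays. Both knockdown arrays stood well above both control arrays there. The difference was 1.15 (SE 0.16, 95% interval 0.77 to 1.53), or 2.22-fold higher, with an adjusted p of 0.031 from limma when every named probe set was tested. In that fit 123 of 13716 probe sets were called (0.897%), 21 of them higher (0.153%).

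The intervals of the 2 YAP1 probe sets did not meet, although both carry the same gene name in the annotation. Their strand and position were not given here either, so whether both read the same mRNA was not tested. Averaged over both, the YAP1 difference was 0.67 with an adjusted p of 0.10 from limma. With 1 array left out the further probe set differed by 1.00 to 1.30. It then did not pass, at adjusted p-values of 0.23 without shYTHDF3 replicate 1, 0.12 without shYTHDF3 replicate 2, 0.33 without shControl replicate 1 and 0.17 without shControl replicate 2. There were 577 genes with 2 or more named probe sets above the filter, 65 of them with identical values on the 2 brightest. Among the other 512 genes the differences of the 2 brightest probe sets had the same sign in 60.9%, and the median gap between both was 0.19. A gap as wide as that of YAP1 (0.96) occurred in 4.10% of these 512 genes and one as wide as that of CCN2 (0.77) in 6.64%.

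TEAD1 and TEAD4, which tether YAP1 to DNA, were slightly higher in the knockdown arrays and did not pass. TEAD1 was 8.14 on both shYTHDF3 arrays, against 8.09 and 8.02 on the shControl arrays (difference 0.08, SE 0.13, 95% interval -0.21 to 0.38). TEAD4 was 7.02 and 7.16 in shYTHDF3 arrays, against 6.85 and 6.89 in shControl arrays. Its difference was 0.22 (SE 0.13, 95% interval -0.09 to 0.52, adjusted p = 0.49 from limma). The groups did not overlap for either factor.

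**Figure D3:**
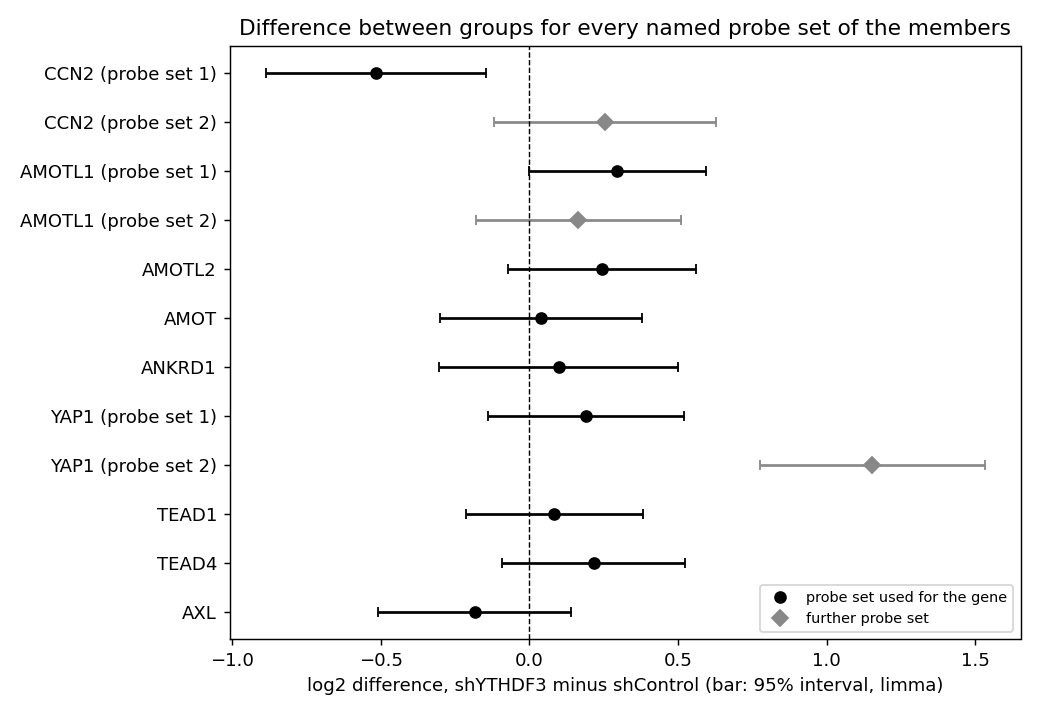
Log2 difference, shYTHDF3 minus shControl, for every named probe set of the members, with 95% intervals from limma's fit over all 13716 named probe sets. Circles mark the probe set that stands for the gene and diamonds a further one. The intervals of CCN2 probe set 1 and YAP1 probe set 2 leave out 0, and the other 10 include it.

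Set against the angiomotins within each array, CCN2 was lower in the knockdown arrays on its brighter probe set. Each gene was centred on its mean over the 4 arrays, so that only changes enter. CCN2 minus the mean of AMOT, AMOTL1 and AMOTL2 was -0.56 and -0.15 in shYTHDF3 arrays, against 0.28 and 0.43 in shControl arrays, a change of -0.71. CCN2 minus the mean of TEAD1 and TEAD4 was -0.45 and -0.22 in shYTHDF3 arrays, against 0.22 and 0.44 in shControl arrays, a change of -0.67. With the further CCN2 probe set in its place, a substitution chosen after seeing the data, the changes were 0.062 and 0.10. These changes follow from the differences given above and are no separate evidence. No test was made of the scores, since the genes were chosen with results known. The secreted targets are represented by CCN2 alone here.

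The other coactivators and cofactors of TEAD did not differ detectably. Of 10 tested genes in the list of YAP1, TAZ, TEAD and VGLL genes 0 passed, 8 had a higher mean, and the median was 0.08. WWTR1, which encodes TAZ and was named after its values were seen, differed by -0.12 (95% interval -0.41 to 0.18). VGLL3, which competes with YAP1 for TEAD, was 4.71 and 4.47 in shYTHDF3 and 5.00 and 4.91 in shControl arrays (difference -0.36, adjusted p = 0.30 from limma). TEAD2 and VGLL4, a TEAD repressor, had differences of 0.38 and 0.25.

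In the Hippo kinase list 22 of 26 genes were tested and 0 passed, with 13 higher, 9 lower and a median of 0.05. LATS1, LATS2, PTPN14 and STRN4 were not analysed here. The 4 genes of smallest p pointed both ways. NF2, the tumour suppressor merlin that activates LATS, was 5.34 and 5.40 in shYTHDF3 and 5.72 and 5.84 in shControl arrays (-0.42, SE 0.13, adjusted p = 0.21 from limma). TAOK2, a kinase that activates the Hippo kinases, was 5.55 and 5.49 in shYTHDF3 and 5.10 and 5.14 in shControl arrays (0.39, SE 0.13, adjusted p = 0.22 from limma). STK38, a relative of LATS that phosphorylates YAP1, differed by 0.34. DCHS1, an atypical cadherin upstream of the pathway, differed by 0.52, while its other probe sets differed by 0.03 and 0.09. Its signal was weak, at 3.81 in shYTHDF3 and 3.29 in shControl arrays, and which of these probe sets reads the gene's own strand was not given. At an unadjusted p under 0.05, 3 genes were higher and 1 lower, where 6.24% of all genes were higher and 8.48% lower.

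A published signature of 22 YAP/TAZ targets showed no shared direction. It had 12 tested members, of which 6 had a higher and 6 a lower mean and 0 passed, with a median of 0.02. FJX1, a Golgi-processed secreted protein, was 9.18 and 9.33 in shYTHDF3 and 8.88 and 8.996 in shControl arrays (0.32, adjusted p = 0.33 from limma). CRIM1, a transmembrane protein that binds BMPs, was 9.54 and 9.42 in shYTHDF3 and 9.76 and 9.66 in shControl arrays (-0.23, adjusted p = 0.45 from limma). The remaining 10 genes of the signature, LATS2 and CCN1 among them, were not analysed here.

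Genes that feed the pathway or share its targets leaned lower in part, again without a call. The SRF and MRTF list, whose actin-controlled factors also drive CCN2, had 15 of its 24 genes tested. ACTA2, ACTB and FLNA were among those not analysed here. Of the 15, 12 had a lower mean, where 6279 of all 12755 genes tested did, and the median was -0.07. At an unadjusted p under 0.05, 5 were lower (8.48% of all genes were lower at that p). TGFB1I1, the focal adhesion protein Hic-5, was 7.48 and 7.99 in shYTHDF3 and 8.59 and 8.83 in shControl arrays. That is a difference of -0.97 (SE 0.19, adjusted p = 0.085 from limma), with the groups well apart. FHL2, a LIM protein, and ZYX, zyxin of focal adhesions, had differences of -0.54 and -0.55 with adjusted p-values of 0.15 and 0.16. CNN2, calponin 2, differed by -0.49 on its brighter and by 0.21 on its further probe set. SRF itself, named after its values were seen, differed by -0.04.

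Of the 19 RhoA inputs to YAP 11 were tested, and ROCK1 and ROCK2 were among those not analysed here. Of the 11, 8 had a lower mean (6279 of all 12755 genes tested did), 0 passed, and the median was -0.12. LPAR1, a lysophosphatidic acid receptor that activates YAP through G proteins, was 8.39 and 8.43 in shYTHDF3 and 9.14 and 8.99 in shControl arrays (-0.65, SE 0.13, adjusted p = 0.090 from limma). A further LPAR1 probe set differed by 0.07. F2R, a thrombin receptor, was 6.45 and 6.50 in shYTHDF3 and 6.86 and 6.84 in shControl arrays (-0.37, adjusted p = 0.24 from limma). S1PR1, at 2.78 to 3.64 on the 4 arrays, lay near the filter, with a difference of -0.49, and GNA12, a G protein subunit, differed by 0.30.

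The AP-1 list, partners of TEAD at enhancers, had 8 tested genes, 4 with a higher and 4 with a lower mean, 0 passing and a median of -0.14. FOSL1, a FOS family protein abundant in basal-like breast cancer cells, was 10.52 and 10.67 in shYTHDF3 and 10.93 and 11.04 in shControl arrays (-0.39, adjusted p = 0.25 from limma). JUN was 9.42 and 9.32 in shYTHDF3 and 8.95 and 9.13 in shControl arrays (0.33, adjusted p = 0.33 from limma). The 2 factors, which pair on DNA, thus pointed opposite ways. ATF3, a stress-induced member, differed by -1.33 (SE 0.27, adjusted p = 0.093 from limma), with the knockdown arrays at 3.67 and 2.74 far from each other. FOS differed by -0.38, and by 0.15 on its further probe set.

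Among angiomotin partners 12 were tested, 5 with a higher and 7 with a lower mean, 0 passing and a median of -0.06. The list also held MERTK, which is a TAM receptor and no known angiomotin partner. TJP1, the tight junction scaffold ZO-1, was 8.54 and 8.65 in shYTHDF3 and 8.95 and 8.82 in shControl arrays (-0.30, SE 0.13, adjusted p = 0.36 from limma). The polarity proteins PATJ, PARD3 and CRB3 had differences of -0.33, -0.28 and -0.17. Of the CCN receptors 3 of 11 were tested and 0 passed. LRP1, an endocytic receptor of CCN2, was 4.29 and 4.30 in shYTHDF3 and 4.70 and 4.67 in shControl arrays (-0.39, adjusted p = 0.22 from limma). LRP6 and SDC4 differed by 0.13 and 0.08, and the integrins of the list were not analysed here.

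Around AXL, the list of TAM receptors and their ligands had 7 tested genes, 3 with a higher and 4 with a lower mean, 0 passing and a median of -0.12. PROS1, the TAM ligand protein S, was 7.06 and 7.01 in shYTHDF3 and 6.72 and 6.52 in shControl arrays (0.41, SE 0.14, adjusted p = 0.23 from limma). The related receptors TYRO3 and MERTK had differences of 0.23 and -0.15.

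**Figure D4:**
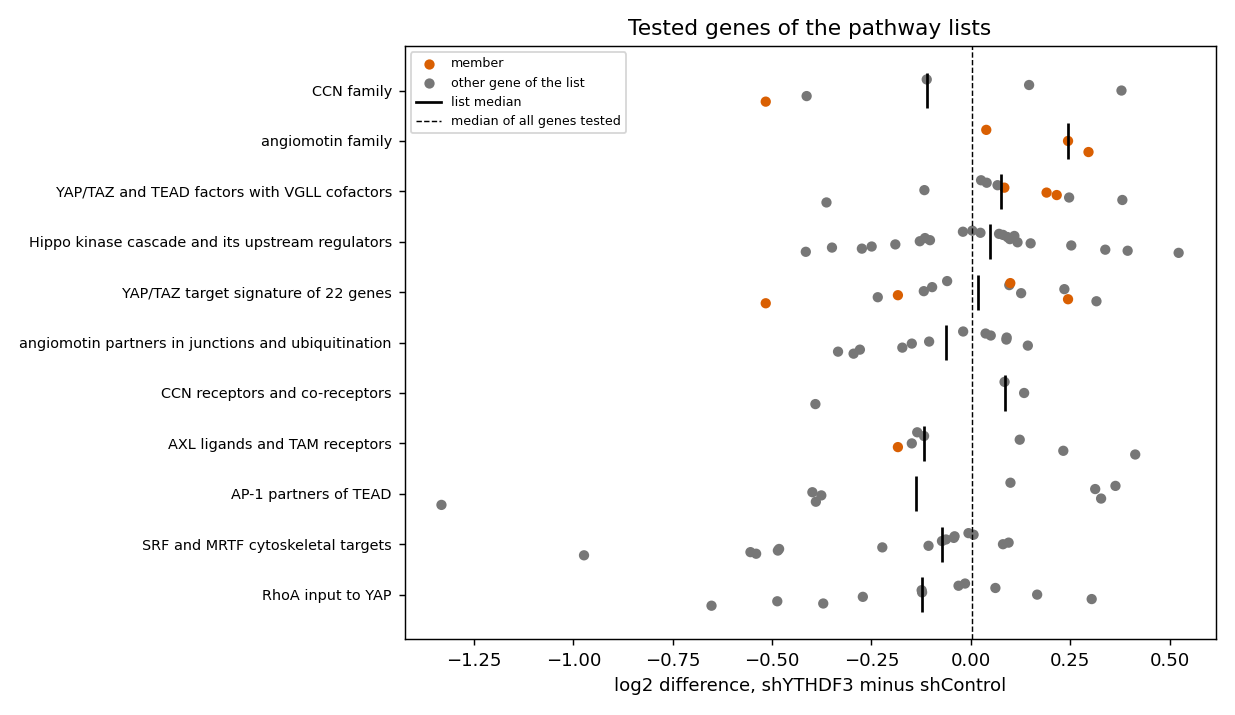
Log2 difference, shYTHDF3 minus shControl, of each tested gene in 11 lists, members in orange, with a bar at each list's median and a dashed line at the median of all genes tested. The list medians lie between -0.14 and 0.24. The 3 angiomotins all lie above 0, and ATF3, TGFB1I1 and LPAR1 lie farthest to the left.

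CCN2 had the widest difference of the members on the probe sets that stand for genes. The 5 tested genes with 4 array values most like its own, each centred on the gene's mean, were CLDN7, DUSP5, SNRPA, ENTPD7 and HOXD1. Their root-mean-square distances from CCN2 were 0.020, 0.021, 0.024, 0.027 and 0.032 on the log2 scale. CLDN7, a claudin, was 6.45 and 6.73 in shYTHDF3 and 6.98 and 7.17 in shControl arrays. DUSP5, a nuclear ERK phosphatase, was 7.23 and 7.54 in shYTHDF3 and 7.82 and 8.06 in shControl arrays. With 4 arrays such likeness describes these values only.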

How the data were processed

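Gene expression was measured on 4 Affymetrix arrays, 2 shYTHDF3 and 2 shControl, grouped by sample title. The deposited table held log2 values for 53617 probe sets, 1 column per array. Per the submitters' processing notes, RMA was used, which removes array-wide shifts and compresses weak signals. Its settings are not stated in the sources used. Values ran from 1.08 to 14.04, with array medians of 3.20 to 3.22. Names came from the platform annotation (16098 named probe sets, all matched to RefSeq), and no detection calls were used. The number of arrays limits the precision.

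Each gene was represented by its brightest probe set and tested when its mean reached the 30th percentile of all rows (2.54 on the log2 scale). The comparison used lmFit and eBayes of limma 3.58.1 (R 4.3.3), 2-sided, with Benjamini-Hochberg adjustment and a threshold of 0.05. Residual degrees of freedom were 2 and prior ones 5.30, and the fit was tested on simulated data. An exact permutation of 2 arrays against 2 cannot give a p below 0.333. Replicate numbers are not tied to a batch in the labels, so there was no block.

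Members and lists were chosen with earlier results of these data known. Genes named were the members, up to 4 of smallest p per list, and the 5 most like the member of widest difference, with others marked. Protein sequences were not used here.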

Additional observations from a re-analysis of the deposited data

How the results depend on the processing

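No measured gene passed under any of 15 alternatives. Of 135 values over the 9 genes, 69 were identical to the reported difference, since those settings change only the test or the rows tested. Of the 66 that moved, 63 kept their direction. The exceptions were AMOT, at -0.090 without shYTHDF3 replicate 1 and -0.011 without shControl replicate 2 (-0.090 to 0.17 with 1 array left out), and ANKRD1, at -0.10 without shYTHDF3 replicate 1 (-0.10 to 0.30 with 1 array left out). With 1 array left out AMOTL1 ran from 0.26 to 0.33, AMOTL2 from 0.15 to 0.34, YAP1 from 0.073 to 0.31, TEAD1 from 0.050 to 0.12, TEAD4 from 0.15 to 0.29 and AXL from -0.29 to -0.076. Over all alternatives CCN2 ran from -0.66 to -0.13, with adjusted p-values from limma of 0.050 with an intensity trend (0.05015 before rounding, above the threshold) to 0.76 with probe sets averaged. The count of genes called, 96, was 167 with a 50th percentile filter, 19 when all 37532 rows above the filter were tested, 375 with an intensity trend, 250 at an adjusted p of 0.1, and 0 to 36 with 1 array left out. It was 11 with the replicate number as a block. Deviations of same-numbered arrays correlated at 0.04 across genes, which does not pair them.

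The alternatives for further probe sets, and the scores with the further CCN2 probe set or with 1 array left out, were chosen after seeing the data. The further YAP1 probe set passed under 7 of 12 alternatives. It did not pass with the replicate block (1.15, adjusted p = 0.16 from limma) or with 1 array left out (1.00 to 1.30), where fewer samples enter. The change of CCN2 minus the angiomotins was 0.062, and that of CCN2 minus the TEAD factors 0.10, with the further CCN2 probe set. With the 3 other normalizations and with 1 array left out these changes ran from -0.91 to -0.51 and from -0.78 to -0.55.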

Other observations

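For CNN2, LPAR1 and FOS a dimmer probe set differed by 0.21, 0.07 and 0.15, where the brightest one differed by -0.49, -0.65 and -0.38. These genes were picked because their probe sets disagree. Opposite signs are frequent in this table, at 39.1% of the 512 genes whose 2 brightest named probe sets above the filter hold distinct values. VIM had a further probe set at 8.63 and 8.72 in shYTHDF3 and 7.47 and 8.10 in shControl arrays (0.89, adjusted p = 0.13 from limma), while its brightest differed by 0.05. Another VIM probe set, at 7.05 and 6.97 in shYTHDF3 and 6.69 and 6.91 in shControl arrays, differed by 0.22. Strand and position of these probe sets were not given. Whether a dimmer one reads the same mRNA as the brightest was thus not tested, nor was which of them reads the gene's own transcript.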
